A study of Mus musculus with 6 samples.

Results

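The AP-1 subunit genes were examined in C8D1A cells, a cloned mouse astrocyte line, after pulsed radiofrequency (PRF), a stimulation in short high-frequency electrical bursts that is used against neuropathic pain. The 10 genes taken were Fos, Fosb, Fosl1, Fosl2, Jun, Junb, Jund, Atf3, Batf3 and Maff. Every array probe whose transcript accession belongs to 1 of them was used, which gave 14 of the 56605 probes and 10 of the 22911 named genes on the array. RNA came from 3 PRF cultures, stimulated after serum withdrawal, and from 3 control cultures of the same line that had no stimulation. Both kinds of culture had 6 days of growth with 10% serum followed by 24 h without serum. By the labels there were 3 independent experiments, and each RNA sample was hybridised to its own one-colour Agilent array. The strength and length of the stimulation and the time to RNA extraction were not given in the sources used here. A single cloned line, kept without serum, is a limited model of astrocytes in tissue.

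AP-1 is a family of dimeric transcription factors whose subunits pair through a leucine zipper, a feature of the basic leucine zipper (bZIP) proteins, and bind DNA with the adjoining basic region. FOS proteins bind DNA as partners of JUN proteins, JUN proteins can also pair with themselves, and ATF, BATF and small MAF proteins share partners or binding sites with them. Several of these genes are immediate early genes, whose mRNA rises within a short time of growth factor, calcium or stress signals, and in astrocytes they are known to respond to injury.

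All 6 arrays lay on 1 slide and were read in 1 scan. Between 35145 and 36191 probes were well above background on the PRF arrays and between 33670 and 34642 on the control arrays. Of 12 astrocyte markers, 10 were measured, among them the filament gene Gfap, with a mean log2 level of -2.68 on the PRF arrays and -2.76 on the control arrays, and the calcium-binding S100b, at 6.02 on the PRF arrays and 5.89 on the control arrays. Slc1a3, a glutamate transporter gene, and Gja1, a gap junction gene, were not well above background on any array. Levels here and below are log2 signals relative to the 75th percentile of each array, and they cannot be set against each other between probes.

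PRF left the AP-1 genes unequally changed. Fosb, Fosl1, Fosl2, Jun, Junb, Atf3 and Maff rose on the probe with the highest mean, while Fos, Jund and Batf3 did not pass the threshold there, an adjusted p of 0.05 in limma. A further Jund probe was slightly higher. Among the member probes, 13 were bright enough to test, 10 were higher and 0 lower after PRF, against 18.4% of all 34838 tested probes higher and 12.7% lower. A dim Fosl2 probe among the 10 entered the test only through the PRF arrays. When probes had to be well above background on all 6 arrays, 9 member probes were higher. Under that filter 4951 of all 32030 tested probes were higher and 4500 lower. By gene, taking the probe with the highest mean, 7 of 10 were higher and 0 lower, against 16.2% of 15069 tested genes higher and 13.2% lower. The median log2 change was 0.87 for the 10 genes and -0.01 for all tested genes. The 2 groups of arrays did not overlap for 9 of the 10 genes, but this was also true of 51.1% of all tested genes. Fosb, Fosl2, Junb and Maff rose 2-fold or more. Of the 15069 tested genes, 1211 passed the threshold with a rise of this size, and 77 passed it with a fall of this size. In bulk RNA a higher signal can come from more RNA per cell or from more cells that hold it, and these arrays cannot tell the 2 apart.

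**Figure D1:**
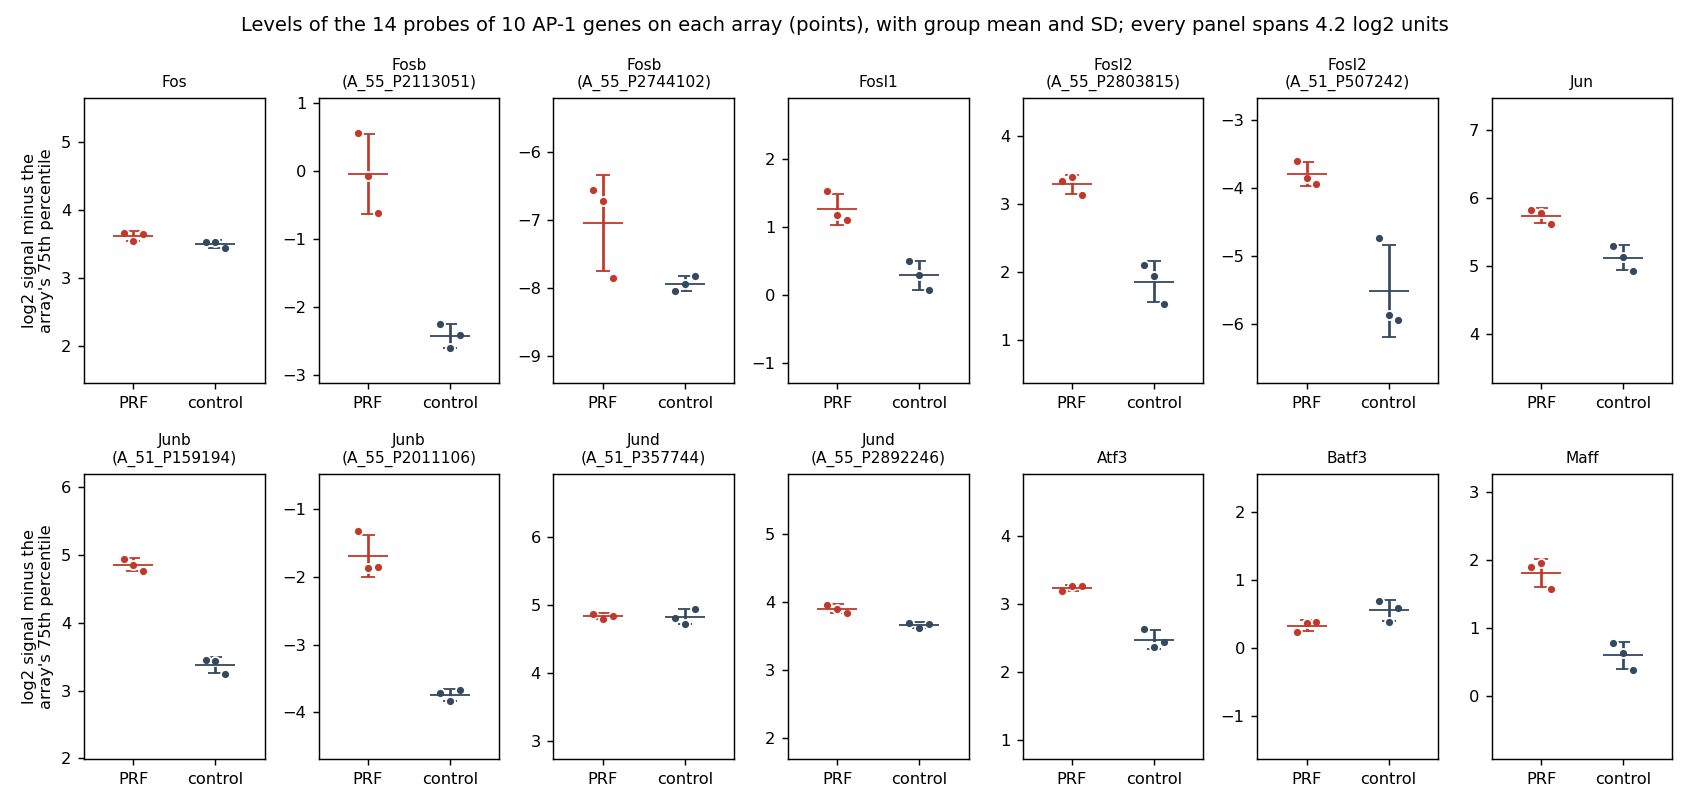
Log2 signal of each of the 14 probes relative to the 75th percentile of its array, with PRF arrays left of control arrays in every panel; points are arrays, the horizontal line is the group mean and the bar the SD (n = 3). Each panel spans the same number of log2 units, so the distance between groups can be compared across panels, and the separation for Fosb (A_55_P2113051) and both Junb probes is wider than that for Fos and Jund.

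The promoter sequences below are shown for some of the genes that rose and for some that did not pass the threshold. RefSeq windows of assembly GRCm38.p6 were matched by symbol to 9 of the 10 genes, all but Fosl1, with 3 starts for Maff. Each stretch has 130 bases before the annotated start and 20 after it, 5′ to 3′ on the strand of the gene, and capitals mark TGACG on either strand, the core of the cAMP response element at which ATF, CREB and JUN proteins bind. Fosb is at chr7:19310026-19310175 on the minus strand, Junb at chr8:84978729-84978878 on the minus strand, Atf3 at chr1:191183314-191183463 on the minus strand and the second Maff start at chr15:79347390-79347539 on the plus strand. Fos is at chr12:85473760-85473909 on the plus strand and Jund at chr8:70697609-70697758 on the plus strand. Every printed stretch of a gene that rose holds a marked TGACG. Fosl2 and Jun, which also rose, have none in their windows and are not printed, nor are Batf3 and the other starts of Maff.
Fosb: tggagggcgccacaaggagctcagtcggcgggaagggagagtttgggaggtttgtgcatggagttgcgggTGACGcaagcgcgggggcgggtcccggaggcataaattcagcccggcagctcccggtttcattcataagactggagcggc
Junb: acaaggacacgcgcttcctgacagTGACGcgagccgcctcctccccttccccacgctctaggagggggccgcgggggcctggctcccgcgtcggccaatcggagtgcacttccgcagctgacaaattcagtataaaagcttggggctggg
Atf3: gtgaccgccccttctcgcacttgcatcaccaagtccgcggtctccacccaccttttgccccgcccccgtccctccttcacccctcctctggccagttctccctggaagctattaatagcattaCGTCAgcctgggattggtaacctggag
Maff: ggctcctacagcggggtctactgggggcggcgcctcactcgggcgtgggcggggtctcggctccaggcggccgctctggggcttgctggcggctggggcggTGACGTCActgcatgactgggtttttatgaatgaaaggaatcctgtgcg
Fos: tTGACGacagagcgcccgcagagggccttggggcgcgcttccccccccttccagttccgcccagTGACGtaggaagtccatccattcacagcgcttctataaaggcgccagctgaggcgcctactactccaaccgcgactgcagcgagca
Jund: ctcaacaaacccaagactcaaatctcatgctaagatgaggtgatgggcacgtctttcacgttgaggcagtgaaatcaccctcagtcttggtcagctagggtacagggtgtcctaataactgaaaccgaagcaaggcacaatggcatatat

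In the full windows, from 250 bases before to 50 after the start, TGACG on either strand was found for 5 of 9 members and in 20.8% of all 32851 windows. It began 60 bases before the start in Fosb, 106 in Junb, 7 in Atf3, and 129 and 66 in Fos, and it was absent from the windows of Fosl2, Jun, Jund and Batf3. The palindrome TGACGTCA, which contains TGACG on both strands, lay 29 bases before the second start of Maff, and 1.79% of all windows hold it. The AP-1 site TGANTCA was in 0 member windows and in 7.81% of all, and the CArG box, at which serum response factor binds, was in 0 and in 1.63%. Bases farther upstream than 250 were not searched, and exact matches miss variants such as TGACATCA in the Jun window. A count of 0 therefore does not mean that these genes lack such sites. GAANNTTC, a part of the heat shock element, was in the windows of Fosl2 and Jun and in 7.86% of all. TATAA was found in Fos and Junb and in 24.9% of all windows, and GGGCGG in 7 members and in 35.7%. Thus the TGACG core occurred both in genes that rose and in Fos, and it was absent from Fosl2 and Jun, which also rose. TGACG was searched for after the windows had been read, and a match is a description of letters.

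Fos, the founding immediate early gene of the family, had log2 levels of 3.66, 3.53 and 3.64 on the PRF arrays, against 3.52, 3.53 and 3.43 on the control arrays. The processed signals were 8022, 6296 and 6890 after PRF and 7743, 7316 and 6426 in control cells, so the probe was bright in both groups. The lowest PRF level lay just above the highest control level. The log2 difference was 0.12 (SE 0.07, 95% interval -0.05 to 0.29, limma adjusted p = 0.238), which keeps the change within 1.5-fold either way, and its sign turned to -0.02 without centring and -0.075 with spike-in scaling.

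Fosb, which encodes a FOS protein and, by splicing, a truncated form that lacks the activation domain, had log2 levels of 0.56, -0.06 and -0.62 on the PRF arrays and -2.25, -2.60 and -2.42 on the control arrays (probe A_55_P2113051). All PRF values were above all control values, and the PRF arrays were spread more widely, with an SD of 0.59, against 0.18 on the control arrays (n = 3 each). The difference was 2.38 (SE 0.29, 5.22-fold, limma adjusted p = 0.002), the largest log2 change among the 10 genes. A second Fosb probe, A_55_P2744102, was not well above background on any of the 6 arrays and gave no comparison.

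Fosl1 and Fosl2 encode FRA1 and FRA2, FOS relatives that lack the strong activation domain of FOS and are often made later and for longer. Fosl1 had levels of 1.52, 1.17 and 1.09 after PRF, against 0.50, 0.29 and 0.07 in control cells, and was 1.96-fold higher (log2 0.97, SE 0.15, limma adjusted p = 0.00528). The main Fosl2 probe, A_55_P2803815, read 3.34, 3.40 and 3.12 after PRF and 2.10, 1.94 and 1.52 in control cells, a 2.70-fold rise (log2 1.43, SE 0.16, limma adjusted p = 0.00157). The groups were separate for both genes.

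The other Fosl2 probe, A_51_P507242, was dim. It read -3.60, -3.85 and -3.94 after PRF and -4.73, -5.87 and -5.95 in control cells, where it was well above background on 1 of 3 arrays. It therefore entered the test only through the PRF arrays, on which it was high. For this reason its p-value is left out. The fitted log2 change of this probe was 1.72 (SE 0.33), and 0.53 after normexp background correction. Within arrays, the difference between the Fosl2 probes shifted by 0.29 between the groups, with an exact two-sided permutation p of 0.5.

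Jun, the partner that FOS proteins most often take, had levels of 5.81, 5.78 and 5.62 on the PRF arrays, against 5.29, 5.13 and 4.92 on the control arrays. The groups were separate and the rise was 1.54-fold (log2 0.62, SE 0.11, limma adjusted p = 0.00884). Without centring the log2 change was 0.48 and the adjusted p was 0.0668.

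Junb encodes a JUN protein that activates more weakly than JUN and can restrain it. Probe A_51_P159194 read 4.94, 4.85 and 4.76 after PRF, against 3.45, 3.43 and 3.24 in control cells, and probe A_55_P2011106 read -1.33, -1.88 and -1.86 after PRF, against -3.72, -3.83 and -3.67 in control cells. On both probes each PRF array was far above each control array, with rises of 2.78-fold (limma adjusted p = 1.61e-04) and 4.14-fold (limma adjusted p = 3.85e-04). The log2 change of the dimmer probe was 2.05 (SE 0.16) and fell to 1.27 after normexp correction, where that of the brighter probe was 1.45. Within arrays the shift between these probes was 0.57 (exact two-sided permutation p = 0.1, the smallest that 3 against 3 allows, and 0.15 adjusted over the 3 genes with such pairs).

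Jund, which is known for steady expression in resting cells, was measured by 2 probes designed to different transcript accessions. Probe A_51_P357744 read 4.87, 4.79 and 4.84 after PRF and 4.81, 4.72 and 4.94 in control cells, so that the groups overlapped. Its log2 difference was 0.01 (SE 0.08, 95% interval -0.18 to 0.20, limma adjusted p = 0.956), within 1.5-fold either way, and its sign changed with the scaling.

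Probe A_55_P2892246 of Jund read 3.96, 3.90 and 3.84 after PRF, against 3.70, 3.62 and 3.67 in control cells. The groups were separate by a narrow margin, and the rise was 1.18-fold (log2 0.24, SE 0.07, limma adjusted p = 0.0374). This call was kept under 4 of 19 alternative settings, and it was lost without any 1 array other than PRF replicate 3. Within arrays the shift between the Jund probes was 0.23, with an exact permutation p of 0.1 (0.15 adjusted).

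Atf3, a stress-induced bZIP gene whose product pairs with JUN proteins and often represses, had levels of 3.19, 3.27 and 3.26 after PRF and 2.63, 2.37 and 2.43 in control cells. The PRF arrays were close together and all above the control arrays, with a rise of 1.70-fold (log2 0.76, SE 0.09, limma adjusted p = 0.00157). Batf3 encodes a small bZIP protein without an activation domain, best known as a JUN partner in dendritic cells. It read 0.24, 0.37 and 0.39 after PRF, against 0.70, 0.39 and 0.59 in control cells. The highest PRF value and the lowest control value nearly met, and the log2 difference was -0.23 (SE 0.10, 95% interval -0.46 to 0.01, limma adjusted p = 0.129). With spike-in scaling the difference was -0.42 and passed the threshold (limma adjusted p = 0.00915).

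Maff encodes a small MAF protein, which has a bZIP but no activation domain. Its levels were 1.91, 1.96 and 1.57 on the PRF arrays, against 0.78, 0.64 and 0.39 on the control arrays. The groups were separate, and the rise was 2.32-fold (log2 1.21, SE 0.14, limma adjusted p = 0.00186).

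**Figure D2:**
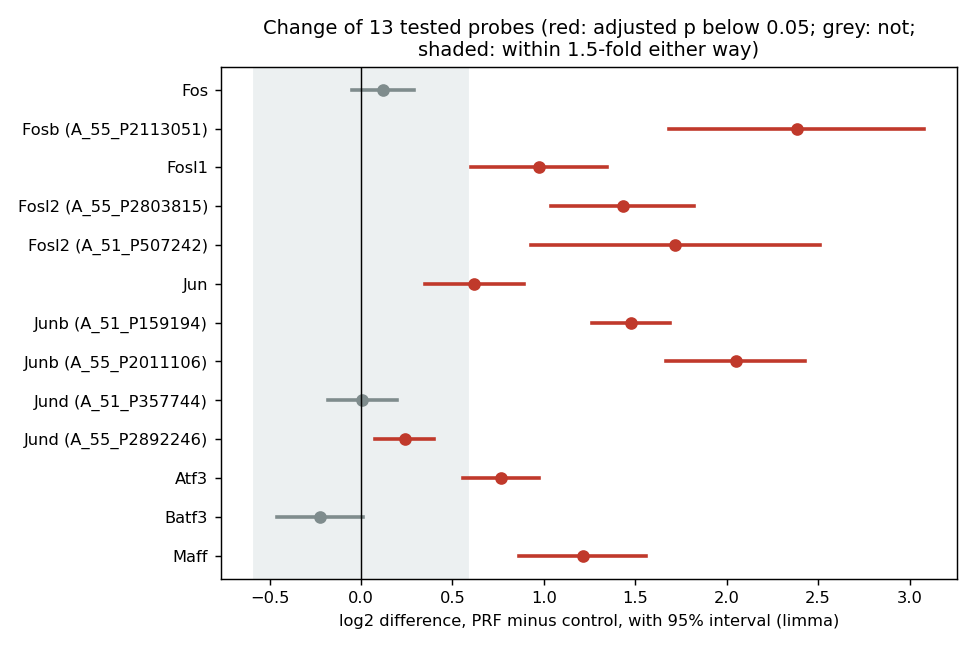
Log2 difference, PRF minus control, of the 13 tested probes with the 95% interval from limma (n = 3 arrays a group); red marks an adjusted p below 0.05 and the shaded band a change within 1.5-fold either way. The intervals of Fos, Batf3 and both Jund probes lie inside the band, and that of Fosb (A_55_P2113051), from 1.69 to 3.08, lies outside it.

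In the order of the log2 changes, Fosb came first, followed by Junb (A_51_P159194), Fosl2 (A_55_P2803815), Maff, Fosl1, Atf3, Jun, Fos, Jund (A_51_P357744) and Batf3. The 95% intervals of neighbours in this order overlapped, except those of Jun, which began at 0.35, and Fos, which ended at 0.29. The overlap of Fosb and Junb was slight, as the Fosb interval began at 1.69, where that of Junb ended.

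A difference taken within an array is the same under any scaling that shifts a whole array by 1 constant, as the percentile, median and spike-in scalings do, though not under quantile normalization. Relative to Fos on the same array, Fosb was higher by 2.26 on the log2 scale after PRF, Junb by 1.36, Fosl2 by 1.31, Maff by 1.09, Fosl1 by 0.85, Atf3 by 0.65 and Jun by 0.50. Batf3 changed by -0.35 relative to Fos. In these 8 comparisons the PRF and control arrays did not overlap. Each had an exact two-sided permutation p of 0.1, the smallest the design can give, or 0.112 adjusted over 9 comparisons. All 9 use the same Fos values, so they are not independent of each other. Without subtraction of Fos, the groups did not overlap for 51.1% of all tested genes, and the share relative to Fos was not computed. Jund differed from Fos by -0.11, with overlapping arrays and an exact permutation p of 0.4. No comparison of this kind can reach 0.05 with 3 arrays in each group.

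**Figure D3:**
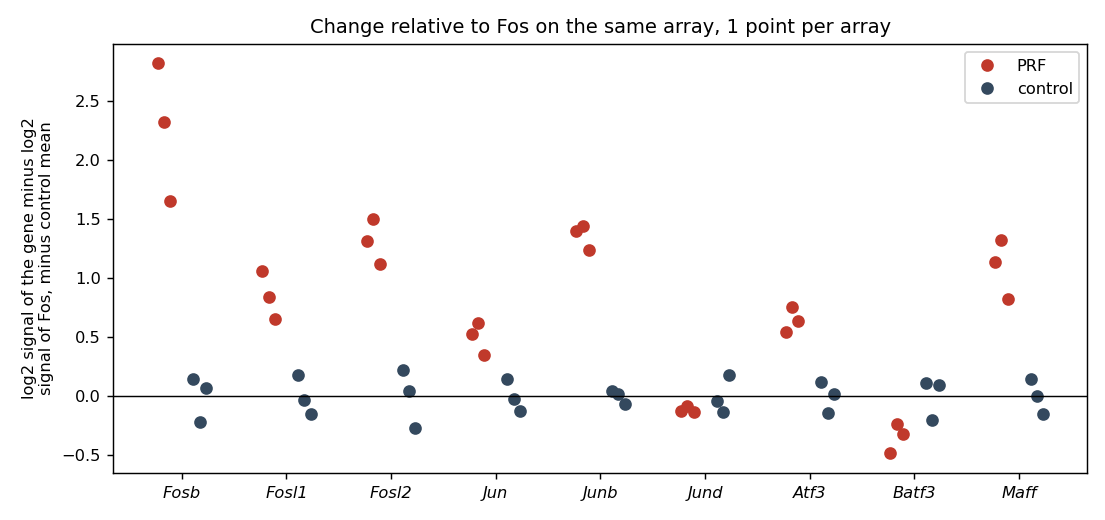
Log2 signal of each gene minus that of Fos on the same array, relative to the control mean; every point is 1 array, with PRF arrays left of control arrays. For Fosb, Fosl1, Fosl2, Jun, Junb, Atf3 and Maff all PRF points lie above all control points, for Batf3 they lie below, and for Jund the groups overlap.

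The 6 arrays lay in 2 rows of the slide, with 1 PRF and 2 control arrays in row 1 and 2 PRF arrays and 1 control array in row 2. No row thus has replicates of both groups, and its values are given without a test. Among the called genes the change was of like size in both rows: it was 2.27 and 2.58 in rows 1 and 2 for Fosb, 0.88 and 1.02 for Fosl1, 1.58 and 1.30 for Fosl2 and 0.67 and 0.59 for Jun. It was 1.51 and 1.42 for Junb, 0.74 and 0.86 for Atf3 and 1.38 and 1.10 for Maff. Fos changed by 0.06 and 0.12, Batf3 by -0.28 and -0.07, and Jund (A_51_P357744) by -0.09 and 0.13, with opposite signs.

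Scaling moved all genes together. The median change over all tested probes was 0.02 with the 75th percentile, -0.12 with the signals as deposited and -0.18 with spike-in scaling. Of all tested probes, 6415 were called higher and 4418 lower with the 75th percentile, 4096 and 6594 as deposited, 5168 and 7309 after quantile normalization, and 4556 and 11186 with spike-in scaling. Fosb, Fosl1, Fosl2, Junb, Atf3 and Maff were called higher under each of these scalings and Jun under all but the deposited signals.

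**Figure D4:**
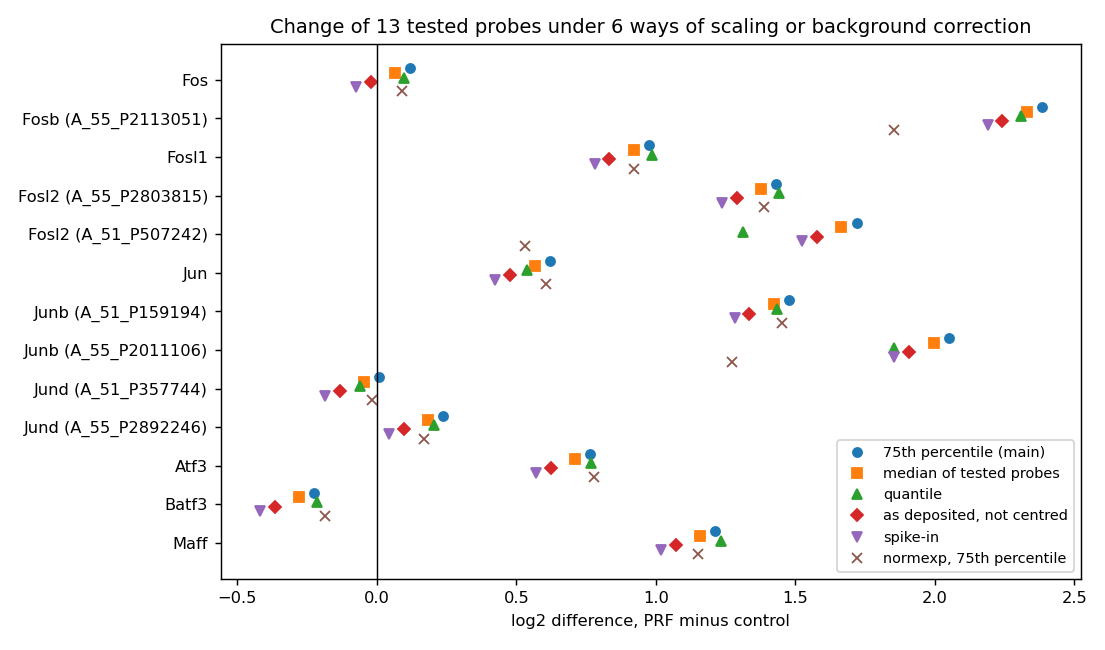
Log2 difference, PRF minus control, of the 13 tested probes under 5 ways of scaling the arrays and with normexp background correction. Fos and Jund (A_51_P357744) lie on both sides of 0, Batf3 lies below 0 under every one, and the dim Fosl2 and Junb probes move toward 0 with normexp, to 0.53 and 1.27.

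Among 32 other tested bZIP genes, only some of them partners or repressors of AP-1, 9 were higher and 1 lower. Their median log2 change was 0.12, and 28.1% were higher, against 16.2% of all genes. Nfil3, a repressor that shares sites with C/EBP proteins, was 4.62-fold higher (log2 2.21, SE 0.14, limma adjusted p = 1.65e-04). Mafk, a small MAF gene like Maff, was 2.06-fold higher (limma adjusted p = 3.22e-04), and Cebpb, a bZIP gene of the acute phase response, was 1.64-fold higher (limma adjusted p = 0.00335). Batf, a relative of Batf3, was not above background in control cells, with means of -4.54 after PRF and -7.88 in control cells. It entered the test only through the PRF arrays, on which it was high, so its p-value is left out. When every array had to exceed background, 8 of 31 list genes were higher, against 12.7% of all genes under that filter. With each control signal of Batf raised to at least the dimmest signal called above background on its array, the rise was 2.34-fold. The fitted log2 change of Batf was 3.34, and 0.64 after normexp correction. The latter is less than 2.34-fold, so that value is no lower limit.

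Atf4, the main effector of the integrated stress response, was 1.44-fold higher (limma adjusted p = 0.00337), and Cebpd, another C/EBP gene, was 1.42-fold higher (limma adjusted p = 0.0225, a call kept in 11 of 19 settings). In all 22 of the 32 genes did not pass, among them Jdp2 at 0.14, Atf2 at -0.01, Crem at 0.23, Mafg at 0.16, Nfe2l2 at -0.17 and Ddit3 at -0.15 on the log2 scale. For Crem, 1 of 3 further probes was called higher. Batf2 was too dim to test. With spike-in scaling, under which 11.9% of all genes were higher and 36% lower, the list had 5 higher and 9 lower genes.

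Of 16 transcription factor genes known to act on AP-1 promoters, 1 was higher (6.25%, against 16.2% of all genes) and 2 were lower (12.5%, against 13.2%). Srf, which encodes serum response factor, was 1.54-fold higher (limma adjusted p = 0.0329), and the genes of its coactivators Mrtfa and Mrtfb were 1.30-fold and 1.48-fold lower (limma adjusted p = 0.0403 and 0.00584). The Srf and Mrtfa calls were each kept in 9 of 19 settings, and the 2 further Mrtfb probes were not called. The list had a median change of -0.02, and with spike-in scaling 0 of its genes were higher and 6 lower, where 36% of all genes were lower.

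The MAP kinase cascade, which controls AP-1 largely by phosphorylation, had 1 gene higher and 4 lower of 33 tested, with a median of -0.04. These were 3.03% higher, against 16.2% of all genes, and 12.1% lower, against 13.2%. Map3k8, an upstream kinase, was 1.31-fold higher (limma adjusted p = 0.0301, kept in 8 of 19 settings). The kinase genes Mapk7, Mapk12 and Rps6ka5 were 1.27-fold, 1.23-fold and 1.22-fold lower (limma adjusted p = 0.0265, 0.0233 and 0.0413, kept in 11, 12 and 8 of 19 settings), with no like call from the 1 further probe of Mapk12 or of Rps6ka5. Mapk8 and Mapk9, which encode the JUN kinases JNK1 and JNK2, had log2 changes of -0.06 and -0.19 and did not pass, though 1 of the 2 further Mapk8 probes was called lower. With spike-in scaling 0 genes of this list were higher and 15 lower, where 36% of all genes were lower.

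Cofactors and turnover factors numbered 16 tested genes, of which 2 were higher (12.5%, against 16.2% of all genes) and 1 lower (6.25%, against 13.2%). Trib1, which encodes a scaffold for the COP1 ubiquitin ligase, was 1.69-fold higher (limma adjusted p = 0.00106). Crebbp, which encodes the coactivator CBP, was 1.25-fold higher (limma adjusted p = 0.0195, kept in 9 of 19 settings), without a call on its further probe. Det1, a component of a ligase that acts on JUN, was 1.43-fold lower (limma adjusted p = 0.0211, kept in 13 of 19 settings). With spike-in scaling 1 of these genes was higher and 7 lower, where 36% of all genes were lower.

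Among 19 tested genes known as AP-1 targets, 7 were higher and 0 lower (36.8% higher, against 16.2% of all genes), with a median change of 0.16. Hbegf, a growth factor of the EGF family, was 2.19-fold higher (limma adjusted p = 0.00344), and Areg, of the same family, was 1.57-fold higher (limma adjusted p = 0.00397). Mmp10, a matrix metalloproteinase gene, was 1.49-fold higher (limma adjusted p = 0.0071). Mmp3 at -0.10 and Plaur at 0.41 did not pass. With spike-in scaling 3 of these genes were higher and 3 lower, where 11.9% of all genes were higher and 36% lower.

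**Figure D5:**
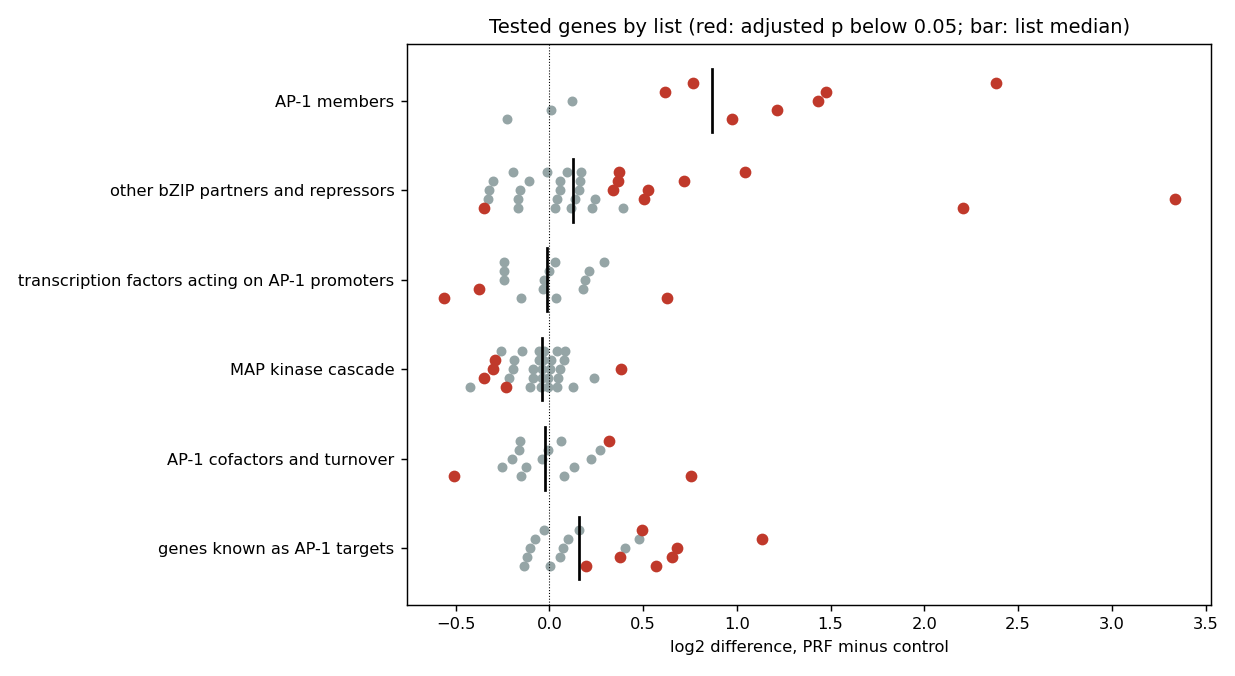
Log2 difference, PRF minus control, of each tested gene of the AP-1 group and of 5 lists; red points have an adjusted p below 0.05 and the black bar is the list median. The AP-1 group has its median at 0.87 and the other lists between -0.04 and 0.16; the point farthest right is Batf, whose fitted value is no measured fold because its control signals were at background.

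Some markers of other cell types also changed, in lists too short to set against the 16.2% of all genes higher and 13.2% lower. Itgam, an integrin gene of microglia, was 1.81-fold higher after PRF (limma adjusted p = 0.00412). Of the 6 microglial markers 3 were measured, with Tmem119 at -0.25 and Csf1r at 0.16 on the log2 scale, neither past the threshold, and Aif1, Cx3cr1 and P2ry12 were not above background on any array. The summed linear signal of the 6, in units of the 75th percentile, was 13.2 to 17.9 on the PRF arrays and 8.88 to 9.27 on the control arrays, and Itgam made up 92.3% to 96.3% of it. Among 5 fibroblast markers Col1a1 and Col1a2 were higher, although Col1a2 was above background on 1 of 3 control arrays and the further Col1a1 probe was not called higher. Pdgfra had a log2 change of -0.67, which did not pass, and Lum was not above background. The list had sums of 0.537 to 0.557 after PRF and 0.289 to 0.378 in control cells. Of 5 neuronal markers 3 were tested, and 1 was higher and 0 lower, with sums of 23.8 to 28.3 after PRF and 22.7 to 25.6 in control cells, and Rbfox3 was not above background. All 5 oligodendrocyte markers were measured, with 1 higher and 1 lower, and sums of 95.6 to 100 after PRF and 92.5 to 94.7 in control cells. Among 10 tested astrocyte markers 1 was higher, Glul, though its 2 further probes were not called higher. With spike-in scaling 0 astrocyte markers were higher and 2 lower. The astrocyte sums were 224 to 229 after PRF and 208 to 221 in control cells, and Vim made up 48.8% to 53.1% of them. All these sums and shares depend on how bright each probe is, so they do not measure the amount of a cell type. The part of these marker shifts in the AP-1 changes was not tested.

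Genes with the most similar pattern were sought among 14037 genes by the root mean square difference, over the 6 arrays, of log2 levels relative to the control mean. For Fos these were Nmd3, Eef1a1 and Mapre1, at 0.018, 0.0191 and 0.0193, and 2057 genes lay within 0.1 of it. Dysf, Trim36 and Fgd3 were nearest to Jun, at 0.044, 0.0512 and 0.0565, with 59 genes within 0.1. For Junb they were Gm13398, Sema6a and Abt1, at 0.0795, 0.0847 and 0.0865, with 11 genes within 0.1. Nearest to Atf3 were 1700092M07Rik, Snora34 and Hspb8, at 0.063, 0.0686 and 0.0709, with 18 genes within 0.1. These counts depend on the size of the change, as most genes changed little (median log2 change -0.01 over all tested genes). They are no particular trait of Fos or Junb.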

How the data were processed

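Each of the 6 deposited array files holds intensity values per spot, written by Agilent Feature Extraction (version 10.7.3.1), as per the file headers, namely the processed signal after background correction, the median signal and the local background. Array annotation in the headers names build mm9. The authors' deposited series table holds the same intensity values, equal within a relative tolerance of 0.0001, with no centring and no log. Their normalization and tests were not given in the sources used here.

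All deposited intensity values were converted to log2 values, control spots and 63 to 85 outlier spots per array were left out, spots of a probe were averaged, and the 75th percentile of each array was subtracted. Its value was 544.4 to 634.1 on the PRF arrays and 596.6 to 674.5 on the control arrays. A probe was tested if well above background on all 3 arrays of a group, so 1 that was dim in control cells entered only if bright after PRF. Models were fitted with limma 3.58.1 (R 4.3.3), with no term but group. Benjamini-Hochberg adjustment ran over all 34838 tested probes or, for gene counts and the genes of the lists, over 15069 genes; the p-values of member probes are over probes. They rest on the spread between the 3 arrays within each group, moderated by limma over all tested probes. The number of independent experiments, 3, limits the precision. The code was tested on simulated data.

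RefSeq accessions of assembly GRCm38.p6 named 32994 probes and left 23611 without a name. The members, gene lists and tests were chosen with earlier results of these data known. From each list, the text names up to 4 called genes whose groups did not overlap, by size of change, and a fixed set of further genes. Not every gene under this rule is reported here. Alternatives were other scalings, normexp with an offset of 50 (on the median signal), other filters, slide row and replicate number as blocks, each row alone, each array left out, the series table, and an unadjusted p of 0.05 with a 1.5-fold change.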

Additional observations from a re-analysis of the deposited data

How the results depend on the processing

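Depending on the setting, the first Jund probe (A_51_P357744) changed sign: it was -0.017 with normexp, -0.134 as deposited, -0.047 with median centring, -0.061 with quantile normalization, -0.187 with spike-in scaling, -0.092 within row 1 and -0.004 with row as a random block. With 1 array left out it ranged between -0.044 and 0.065. Fos was -0.022 as deposited and -0.075 with spike-in scaling. The cause was not tested.

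Of all tested probes 10833 passed, against 3209 within row 1, 162 within row 2 and 6225 at an unadjusted p of 0.05 with 1.5-fold; with 1 array left out 7220 (without PRF replicate 2) to 10684 passed. Of the 10 member probes called, 4 passed within row 1 and 0 within row 2, and of the 7 member genes 2 and 0. Row 1 has a single PRF array and row 2 a single control array, assumed to vary like the other group, so these counts say nothing about stability. Leaving out 1 array kept 9 or 10 member probes and all 7 member genes.

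Whether equal replicate numbers mark 1 experiment is not stated. The deviations of same-numbered arrays correlated at 0.189, -0.133 and 0.0955, so not every pair was over 0.1, and with other numbers at -0.15 to -0.0304, 0.0534 to 0.0675 and -0.229 to 0.134. With the replicate number as a block 9422 probes, 9 member probes and 7 member genes passed, and the second Jund probe missed the threshold (limma adjusted p = 0.0707). Row as a random block had a consensus correlation of -0.198.

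Fosb, Fosl1, Fosl2, Junb, Atf3 and Maff kept their direction and call in all 17 alternatives other than the single rows. Signal over background limits Batf, the dim Fosl2 probe and the second Fosb probe, and the 3 arrays in each group limit every test.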
